A study of Homo sapiens with 16 samples.

Results

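UGT1A1, UGT1A6 and UGT1A7 are glucuronosyltransferase genes of 1 locus on human chromosome 2, and they were selected by symbol: 3 of the 18227 genes in the deposited tables carry these names. The names were taken from the tables that compare knockout with wild-type cells, where the high UGT1A7 level of 1 knockout group was already known. Differences between those genotypes are therefore given here as a description, with no test. UGT1A3 and UGT1A9 also have rows in the tables, and the remaining genes of the locus are not analysed here.

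UDP-glucuronosyltransferases sit in the membrane of the endoplasmic reticulum and join glucuronic acid to small lipophilic molecules, which makes them water soluble and ready for export. The UGT1A genes share their downstream exons, and each has a promoter and a first exon of its own that encodes the substrate-binding part of the enzyme. UGT1A1 is the enzyme that conjugates bilirubin, UGT1A6 acts on small planar phenols, and UGT1A7 is a mainly extrahepatic enzyme of the airway and upper digestive tract known for conjugating metabolites of tobacco carcinogens. UGT1A genes are known targets of the aryl hydrocarbon receptor (AHR), of the oxidative stress factor NRF2 and of the liver-enriched factor HNF4A.

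The study measured polyadenylated RNA in A549 and H2023 cells, both human non-small cell lung cancer lines, with and without ZC3H12A, the gene of the ribonuclease Regnase-1. Its title concerns the part Regnase-1 plays in the stem-like traits of such cells. The 16 libraries form 8 groups of 2: each line as wild type or ZC3H12A knockout, after 3 days in normal culture or 7 days in a culture that enriches stem-like cells, called oncosphere culture. All knockout libraries of a line come from 1 clone, so the clone and the knockout cannot be told apart, and neither can the culture and its length. The labels number the libraries of each group but name no separate cultures, so every test measures the spread between these libraries, which may be technical.

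Levels are read as TPM, a length- and depth-scaled measure of transcript abundance, a unit inferred from the authors' deposited values. The sum of these levels over genes was 991838 to 998125 per library, with 13824 to 14508 genes at 1 TPM or more. Replicates correlated with Pearson r from 0.983 to 0.992 across genes on the log2(TPM + 1) scale. ZC3H12A mRNA was lower with the knockout label only in A549 cells in normal culture, from 30.72 and 34.88 to 16.9 and 19.93 TPM (limma adjusted p = 0.0294). It had log2 fold changes of 0.24, 0.54 and 1.43 in the other comparisons, with adjusted p-values of 0.187, 0.152 and 0.221. The mRNA level alone does not show whether the gene was edited, so the libraries are called "labelled knockout" throughout. The 6 epithelial markers were detected in every library, with summed levels of 2571 to 13032 TPM. Some were near the floor: in A549 labelled knockout in normal culture KRT19 had 0.67 and 0.29 TPM and EPCAM 0.37 and 0.93 TPM. EPCAM had 0.82 and 1.03 TPM in their oncospheres. Values exist for 4 of the 8 markers of blood, endothelial and stromal cells, with summed levels of 3.34 to 52.9 TPM. The mitochondrial share of TPM was 10.3 to 18.7% after normal and 19.5 to 25.6% after oncosphere culture.

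The genes lie on the forward strand of chromosome 2 in GRCh38 (GENCODE 29). The UGT1A7 gene (ENSG00000244122) spans chr2:233681938-233773299, UGT1A6 (ENSG00000167165) spans chr2:233691607-233773300 and UGT1A1 (ENSG00000241635) spans chr2:233760248-233773299. Their 201 transcripts have 5 exons each, of which exons 2 to 4 are identical and exon 5 begins at the same base. The first exons are private: 855 bases for UGT1A7, 1000 for UGT1A6 and 904 for UGT1A1. The distance from the start of exon 1 to exon 2 is 85.1 kb for UGT1A7, 74.2 kb for UGT1A6 and 6.79 kb for UGT1A1. What follows exon 1 is 63.4% of the UGT1A7 transcript, 59.7% of the UGT1A6 transcript and 62.0% of the UGT1A1 transcript, so most of each transcript gives reads that no position can assign to 1 gene. The first exons of UGT1A7 and UGT1A6 share 69.8% of their aligned bases, and those of UGT1A7 and UGT1A1 70.5%. UGT1A7 is far closer to UGT1A10 (93.6%), UGT1A8 (93.3%) and UGT1A9 (92.3%), so its first exon is near-identical to theirs. How the authors' counting divided such reads is not given in the sources used here, and each gene's value is uncertain to that extent.

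**Figure D1:**
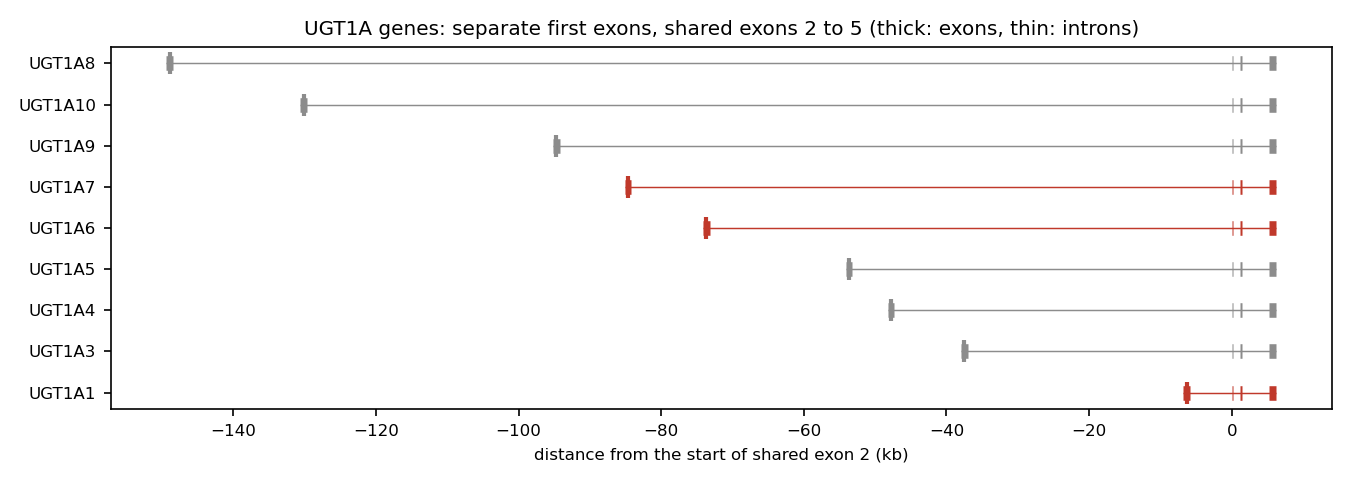
The 9 UGT1A genes are drawn by distance from the start of their shared exon 2 (kb), with thick blocks for exons and thin lines for introns, and UGT1A1, UGT1A6 and UGT1A7 in red. Each gene has its own first exon upstream, 85.1 kb away for UGT1A7 and 6.79 kb away for UGT1A1, and all end in the same block of exons.

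Because first exons are private, the promoters are where the 3 genes differ as units of regulation, and they are shown for that reason. Each is the 250 bases before a RefSeq start (GRCh38.p14, forward strand, 5′ to 3′), in lower case with motif matches in capitals. All 3 genes have an entry. UGT1A7 covers chr2:233681651-233681900, UGT1A6 covers chr2:233692640-233692889 before the second of its RefSeq starts, and UGT1A1 covers chr2:233760020-233760269.
UGT1A7: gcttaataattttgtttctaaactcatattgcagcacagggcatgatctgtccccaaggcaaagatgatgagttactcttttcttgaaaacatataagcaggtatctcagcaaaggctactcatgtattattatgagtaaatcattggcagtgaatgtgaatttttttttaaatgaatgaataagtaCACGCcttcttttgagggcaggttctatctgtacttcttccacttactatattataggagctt
UGT1A6: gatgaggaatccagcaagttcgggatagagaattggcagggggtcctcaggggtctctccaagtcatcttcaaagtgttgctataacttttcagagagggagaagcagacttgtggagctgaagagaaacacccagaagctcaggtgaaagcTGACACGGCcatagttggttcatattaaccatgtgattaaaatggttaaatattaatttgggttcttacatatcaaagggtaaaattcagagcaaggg
UGT1A1: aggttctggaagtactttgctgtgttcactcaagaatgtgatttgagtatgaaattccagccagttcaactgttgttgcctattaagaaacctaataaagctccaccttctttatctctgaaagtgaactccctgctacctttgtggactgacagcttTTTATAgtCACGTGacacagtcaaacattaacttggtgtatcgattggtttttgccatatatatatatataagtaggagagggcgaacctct
Both strands were searched for the AHR-ARNT core GCGTG, the antioxidant response element core TGACNNNGC, the E-box CACGTG, the AP-1 site TGANTCA and the TATA box TATAAA, and no match overlapped another. UGT1A7 held the AHR-ARNT core on the reverse strand (cacgc as printed), 63 bases before its start. The UGT1A6 window shown held the antioxidant core, 98 bases before the start, and the window of its first RefSeq start held GCGTG 200 bases before. UGT1A1 held an E-box 84 bases before its start and TATAAA on the reverse strand (tttata as printed) 92 bases before. A run of ta repeats nearer the UGT1A1 start did not match TATAAA and stays in lower case. Such letters are common: among 35116 promoter windows of the same length, 32.2% held GCGTG, 10.9% the antioxidant core, 6.3% the E-box, 6.6% the AP-1 site and 10.7% TATAAA. A match describes the letters and does not show a site in use.

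UGT1A7 was the most abundant of the 3 genes in both A549 groups labelled knockout and close to 0 in H2023. In A549 cells in normal culture the 2 wild-type libraries stood at 0.07 and 0.66 TPM, and those labelled knockout at 22.05 and 22.55 TPM. In oncosphere culture wild type stood at 2.97 and 4.76 TPM, and the libraries labelled knockout at 61.57 and 47.96 TPM. The 2 genotypes did not overlap in either culture, and in bulk RNA a different share of cells that express a gene and a different level per cell cannot be told apart. In H2023 cells in normal culture wild type had 0.23 and 0.21 TPM of UGT1A7, and the cells labelled knockout 0.19 and 0.09 TPM. In H2023 oncospheres it was listed at 0 and at 1.08 TPM in wild type, while the cells labelled knockout had 0.24 and 0.07 TPM. All 8 H2023 libraries were thus at or below 1.08 TPM. Ordered by mean (± SD, n = 2), A549 oncospheres labelled knockout (54.8 ± 9.62 TPM) were followed by A549 labelled knockout in normal culture (22.3 ± 0.35 TPM) and by wild-type A549 oncospheres (3.87 ± 1.27 TPM), and each of these was apart from the next. The other 5 groups had means of 0.14 to 0.54 TPM, and each overlapped its neighbour in the order.

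UGT1A6 was also highest in A549 oncospheres labelled knockout, and unlike UGT1A7 it was expressed in H2023. In A549 cells in normal culture UGT1A6 had 0.27 and 0.64 TPM in wild type, and 4.87 and 3.59 TPM with the knockout label. In A549 oncospheres UGT1A6 had 7.41 and 4.84 TPM in wild type, and 26.38 and 20.91 TPM with the knockout label. Both cultures therefore separated the genotypes, with the libraries labelled knockout higher. In H2023 the order of the genotypes was the opposite: in normal culture wild type had 2.31 and 2.1 TPM, and cells labelled knockout 0.8 and 1.28 TPM. In H2023 oncospheres UGT1A6 had 8.46 and 10.47 TPM in wild type, and 2.2 and 4.52 TPM with the knockout label, again without overlap. The highest group mean was that of A549 oncospheres labelled knockout (23.6 ± 3.87 TPM, SD, n = 2), apart from wild-type H2023 oncospheres (9.47 ± 1.42 TPM), which were apart from wild-type A549 oncospheres (6.13 ± 1.82 TPM). Wild-type A549 oncospheres and the next groups in the order, down to a mean of 2.21 TPM in wild-type H2023 in normal culture, each overlapped their neighbour. The lowest were H2023 labelled knockout (1.04 ± 0.34 TPM) and wild-type A549 (0.46 ± 0.26 TPM) in normal culture, which did not overlap.

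UGT1A1 was at or below 7.08 TPM in every library, and its highest levels were all in oncospheres. In A549 cells in normal culture UGT1A1 had 0.65 and 0.8 TPM in wild type, and 1.42 and 1.44 TPM with the knockout label. In A549 oncospheres the genotypes overlapped, with 6.12 and 3.93 TPM in wild type and 5.76 and 3.96 TPM labelled knockout. Thus the A549 oncospheres of the 2 genotypes overlapped in UGT1A1, whereas their UGT1A7 levels were apart. In H2023 cells in normal culture UGT1A1 had 2.14 and 1.12 TPM in wild type, and 0.41 and 0.44 TPM with the knockout label. In H2023 oncospheres it had 7.08 and 2.89 TPM in wild type and 0.32 and 2.1 TPM labelled knockout, a wide spread within both groups. The top of the order was shared by wild-type A549 (5.03 ± 1.55 TPM, SD, n = 2), wild-type H2023 (4.99 ± 2.96 TPM) and A549 labelled knockout (4.86 ± 1.27 TPM), all oncospheres that overlapped each other. These stood apart from the next group, wild-type H2023 in normal culture (1.63 ± 0.72 TPM). The lowest group, H2023 labelled knockout in normal culture (0.43 ± 0.02 TPM), was apart from the wild-type A549 group above it (0.73 ± 0.11 TPM).

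**Figure D2:**
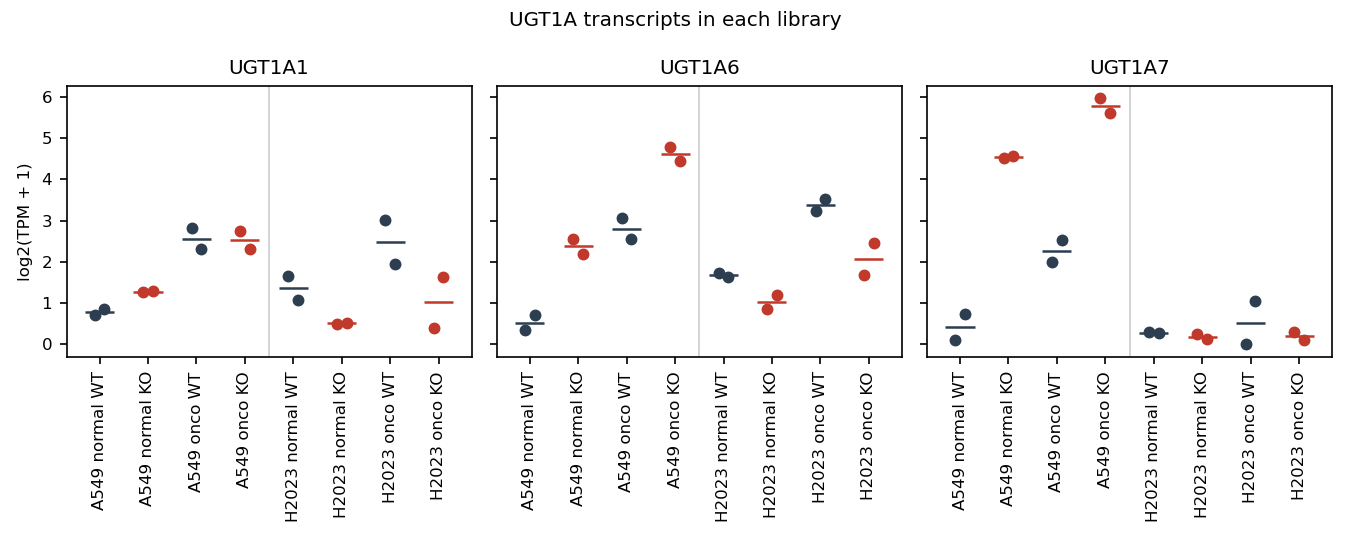
Each point is 1 library on the log2(TPM + 1) scale and each bar the mean of the 2 libraries of a group, wild type (WT) in dark blue and labelled knockout (KO) in red, with A549 left of the grey line and H2023 right of it. UGT1A7 has 22.05 to 61.57 TPM in the A549 groups labelled knockout and at most 4.76 TPM elsewhere, UGT1A6 differs by genotype in opposite directions in the 2 lines, and UGT1A1 lies between 0.32 and 7.08 TPM.

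Set against wild type, UGT1A7 and UGT1A6 were higher in the A549 libraries labelled knockout, and UGT1A6 and UGT1A1 were lower in those of H2023. Fold changes are differences of log2(TPM + 1), which understate changes of low values, and are given as a description with their standard errors. In A549 cells in normal culture the log2 fold change was 4.13 ± 0.27 (SE) for UGT1A7, 1.85 ± 0.23 for UGT1A6 and 0.50 ± 0.15 for UGT1A1. The ratios of mean TPM were 61.1, 9.30 and 1.97, the first resting on a wild-type mean of 0.365 TPM. In A549 oncospheres the log2 fold change was 3.53 ± 0.24 for UGT1A7 and 1.81 ± 0.24 for UGT1A6, with ratios of mean TPM of 14.2 and 3.86. UGT1A1 had a log2 fold change of -0.03 ± 0.28 there, and leaving out wild-type replicate 1 or labelled-knockout replicate 2 turned its sign (0.23 and 0.19). In normal culture all 3 genes were higher in both A549 libraries labelled knockout than in both wild-type libraries, as were 27.2% of all genes, and in oncospheres 2 of 3 were, as were 32.7% of all genes.

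In H2023 cells in normal culture the log2 fold change was -0.86 ± 0.22 (SE) for UGT1A1, -0.66 ± 0.17 for UGT1A6 and -0.10 ± 0.08 for UGT1A7. All 3 were lower in both libraries labelled knockout, as were 24.5% of all genes. In H2023 oncospheres it was -1.47 ± 0.60 for UGT1A1 and -1.31 ± 0.34 for UGT1A6, and both genes were lower in both libraries labelled knockout, as were 18.9% of all genes. UGT1A7 had -0.32 ± 0.39 there, with overlapping groups, and the sign turned without wild-type replicate 2 (0.20), the only wild-type library of the pair in which the gene was not listed at 0. In these 2 comparisons limma called 0 of all 18227 genes, with 3314 and 2828 at an unadjusted p under 0.05, whereas the authors' deposited table calls 1665 and 816.

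The authors' deposited table gives its own fold changes and the mean normalized count behind each. For UGT1A7 in A549 cells the deposited table has a log2 fold change of 5.85 ± 1.00 (SE) on a mean count of 383 in normal culture, and 3.77 ± 0.26 on a mean count of 949 in oncospheres. For UGT1A6 the authors' deposited table has 3.10 ± 0.56 and 1.94 ± 0.33 in A549 and -1.24 ± 0.52 and -1.51 ± 0.44 in H2023, on mean counts of 46.7 to 375. For UGT1A1 the authors' deposited table has 1.30 ± 0.50 and 0.03 ± 0.34 in A549 and -1.91 ± 0.60 and -2.05 ± 0.73 in H2023. In H2023 the deposited mean counts of UGT1A7 were 6.80 and 14.2, so little was measured of that gene there, and the deposited log2 fold changes of -0.69 and -1.77 had standard errors of 1.23 and 1.44.

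**Figure D3:**
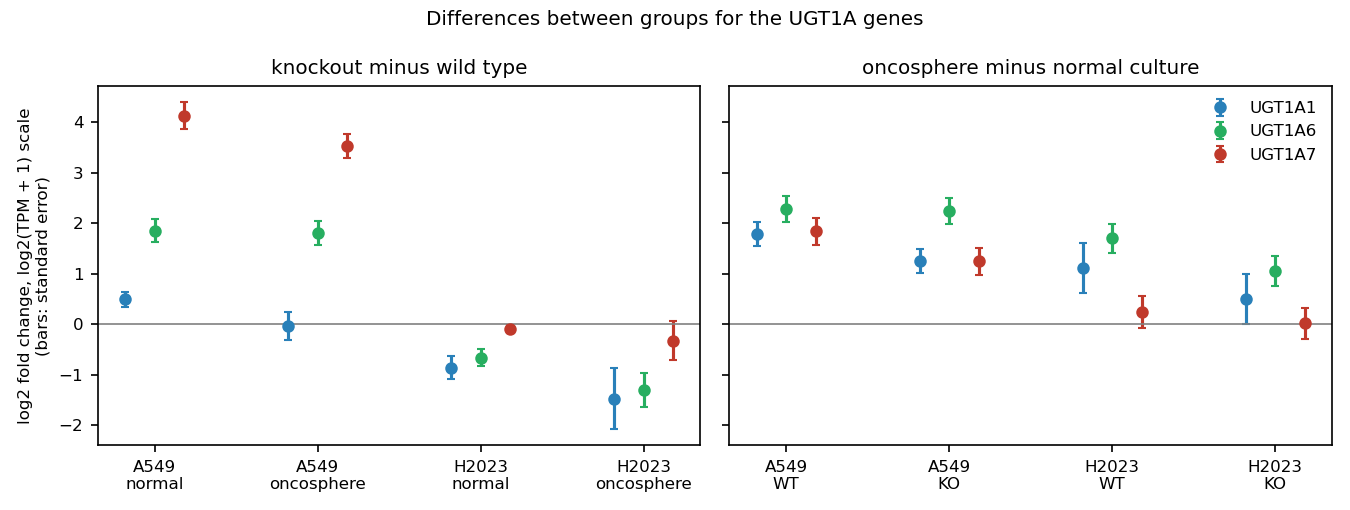
Log2 fold changes on the log2(TPM + 1) scale with bars for 1 standard error, labelled knockout minus wild type at left and oncosphere minus normal culture at right, for UGT1A1 (blue), UGT1A6 (green) and UGT1A7 (red). UGT1A7 (4.13 and 3.53) and UGT1A6 (1.85 and 1.81) lie above 0 in A549 at left, and UGT1A6 (-0.66 and -1.31) and UGT1A1 (-0.86 and -1.47) lie below 0 in H2023.

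Whether culture changed the UGT1A genes was tested, since the names came from the genotype tables and not from that contrast. The same libraries enter both, so these tests are not independent of the choice of genes. This holds most for UGT1A7 in A549 cells labelled knockout, since a high UGT1A7 level in a knockout group was known beforehand. TPM is scaled within each library, so libraries of separate tables are set side by side here. In wild-type A549 cells all 3 genes rose in oncospheres: UGT1A6 by a log2 fold change of 2.28 ± 0.26 (SE; limma adjusted p = 0.000369), UGT1A7 by 1.84 ± 0.27 (adjusted p = 0.00114) and UGT1A1 by 1.78 ± 0.24 (adjusted p = 0.000824). The background was high, with 19% of all genes called higher and 40.6% called in either direction, while the median of all genes was -0.01. As ratios of mean TPM the rises were 13.5 for UGT1A6, 10.6 for UGT1A7 and 6.93 for UGT1A1, and all 3 calls held without any 1 of the 4 libraries compared. Mitochondrial transcripts were also higher in these oncospheres (20.43 and 23.29% of TPM against 11.81 and 16.01%). So was the sum of the markers of other cells (32.9 to 52.9 against 11.5 to 15.4 TPM). That sum was mostly CD14 (47.61 and 26.79 against 13.05 and 8.17 TPM). PECAM1 was higher too (2.76 and 1.77 against 0.04 and 0.1 TPM), while COL1A1 and PDGFRB overlapped between the cultures. The part of all these in the rises was not tested.

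In A549 cells labelled knockout the 3 genes also rose in oncospheres, from higher starting levels. UGT1A6 rose by a log2 fold change of 2.24 ± 0.26 (SE; limma adjusted p = 0.00101), where 10.9% of all genes were called higher and 20.8% in either direction. UGT1A1 rose by 1.25 ± 0.24 (limma adjusted p = 0.00879) and UGT1A7 by 1.25 ± 0.27 (adjusted p = 0.0136). The UGT1A7 p-value is not independent of the choice of genes. The UGT1A1 call was lost without normal-culture replicate 1 (adjusted p = 0.0529) or 2 (0.05004) or oncosphere replicate 1 (0.0601), and the UGT1A7 call without the same libraries (0.0757, 0.0700 and 0.0954 by limma). With a pseudocount of 0.1 TPM in place of 1 TPM, UGT1A7 had 1.28 with an adjusted p of 0.169. Mean UGT1A7 stood at 2.46 times its normal-culture level, less than the ratio in wild type, and the difference between those ratios was not tested. Markers of other cells summed to 30.9 to 37.8 TPM in these oncospheres against 10.4 to 11.2 TPM in normal culture. CD14 made up most of that sum (34.34 and 28.97 against 6.88 and 6.61 TPM). PECAM1 was called higher too (log2 fold change 0.77), PDGFRB was called lower (-0.54), and COL1A1 was lower in both libraries. Of the epithelial markers 4 of 6 were called higher and 1 lower, and the mitochondrial share was 19.53 and 20.26% against 13.36 and 18.7%. Their part in the rises was not tested.

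In H2023 cells UGT1A6 was the gene that rose with culture. In wild type its log2 fold change was 1.70 ± 0.29 (SE; limma adjusted p = 0.0113), a ratio of means of 4.29, in a comparison where 3.96% of all genes were called higher, 21.4% in either direction, and the median of all genes was -0.18 (721 genes higher and 3180 lower, or 1455 and 1260 with each library centred on its median). The call was lost without normal-culture replicate 1 (adjusted p = 0.0545) or 2 (0.0607) or oncosphere replicate 2 (0.0555). UGT1A1 had 1.12 ± 0.49 (adjusted p = 0.156), higher in both oncosphere libraries but not past the threshold. UGT1A7 had 0.24 ± 0.31 (adjusted p = 0.620), a value that one library set: without oncosphere replicate 1, listed at 0, it was 0.77 (adjusted p = 0.0236), and without replicate 2 it was -0.29. In these oncospheres 3 of 6 epithelial markers were called lower (summed 4327 and 4565 against 8749 and 9397 TPM), and their part in the UGT1A6 rise was not tested.

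In H2023 cells labelled knockout UGT1A6 rose in oncospheres by a log2 fold change of 1.05 ± 0.29 (SE; limma adjusted p = 0.0399), where 7.68% of all genes were called higher, 26.9% in either direction, and the median of all genes was -0.12 (1400 genes higher and 3495 lower, or 2145 and 2322 after centring). That call was lost without either normal-culture library (adjusted p = 0.188 and 0.0935) or without oncosphere replicate 2 (0.142). UGT1A1 had 0.51 ± 0.49 (adjusted p = 0.499) and turned to -0.11 without oncosphere replicate 2. UGT1A7 had 0.02 ± 0.31 (adjusted p = 0.984), at levels that were all at or below 0.24 TPM. Of the 6 epithelial markers 1 was called higher and 3 lower here, and their part was not tested. UGT1A6 was thus the gene whose culture rise passed the test in all 4 combinations of line and genotype, though in H2023 each call rested on single libraries.

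Between the wild-type lines, UGT1A6 differed in normal culture and UGT1A7 in oncospheres. In normal culture UGT1A6 was higher in H2023 by a log2 fold change of 1.15 ± 0.25 (SE; limma adjusted p = 0.0100), where 35.4% of all genes were called and the median of all genes was 0.12 (4155 genes higher and 2302 lower, or 2651 and 3804 after centring). The call was lost without A549 replicate 1 (adjusted p = 0.0671) or H2023 replicate 1 (0.0531). UGT1A1 had 0.58 ± 0.38 (adjusted p = 0.265) and UGT1A7 -0.13 ± 0.37 (adjusted p = 0.816), the latter at 0.07 to 0.66 TPM in both lines. In oncospheres UGT1A7 was lower in H2023, by a log2 fold change of -1.73 ± 0.37 (adjusted p = 0.00789; 42.3% of all genes called), a call lost without A549 replicate 2 (adjusted p = 0.0534). UGT1A6 had 0.57 ± 0.25 (adjusted p = 0.101) and UGT1A1 -0.08 ± 0.38 (adjusted p = 0.883) there.

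The culture effect itself was compared between the wild-type lines with an interaction term. The H2023 effect minus the A549 effect was -1.60 ± 0.52 (SE) for UGT1A7 on the log2 scale (limma adjusted p = 0.106), where 7.28% of all genes were called and the median was -0.14 (341 genes higher and 986 lower, or 698 and 582 after centring). It passed the threshold without H2023 oncosphere replicate 2 (-2.13, adjusted p = 0.0453) and when all 16 libraries shared 1 fit (adjusted p = 0.0345). UGT1A1 had -0.66 ± 0.53 (adjusted p = 0.480) and UGT1A6 -0.58 ± 0.35 (adjusted p = 0.344), which leaves both smaller and equal rises in H2023 within the error.

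Because reads of the shared exons can be divided among the genes in more than 1 way, the sum of 5 UGT1A genes was also followed. These were UGT1A1, UGT1A6, UGT1A7, UGT1A3 and UGT1A9, each with its share of the sum. UGT1A8 and UGT1A10, whose first exons are closest to that of UGT1A7, have no values here, and UGT1A2P (at most 1.65 TPM) was left out. The sum therefore cannot show how reads were divided among all genes of the locus. The sum in A549 cells in normal culture was 1.2 and 2.24 TPM in wild type, and 28.34 and 27.72 TPM with the knockout label. In A549 oncospheres it was 20.55 and 17.23 TPM in wild type and 94.29 and 73.12 TPM labelled knockout. The sums thus kept the genotypes apart in both cultures, with ratios of means of 16.3 and 4.43. In H2023 the sum was 4.75 and 3.83 TPM against 1.64 and 1.98 TPM labelled knockout in normal culture, and 15.73 and 14.93 against 2.99 and 7.67 TPM in oncospheres, ratios of 0.422 and 0.348.

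The make-up of the sum differed between the lines. UGT1A7 made up 77.8 and 81.4% of it in A549 cells labelled knockout in normal culture and 65.3 and 65.6% in their oncospheres. In wild-type A549 oncospheres UGT1A7 made up 14.5 and 27.6%, and the sum was spread over UGT1A6 (36.1 and 28.1%), UGT1A1 (29.8 and 22.8%) and UGT1A3 (15.9 and 19.3%). UGT1A1 made up 5.01 to 6.11% in the 4 A549 libraries labelled knockout. In all 8 H2023 libraries UGT1A6 was the largest part, at 48.6 to 73.6%, and UGT1A7 never passed 11.6%.

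**Figure D4:**
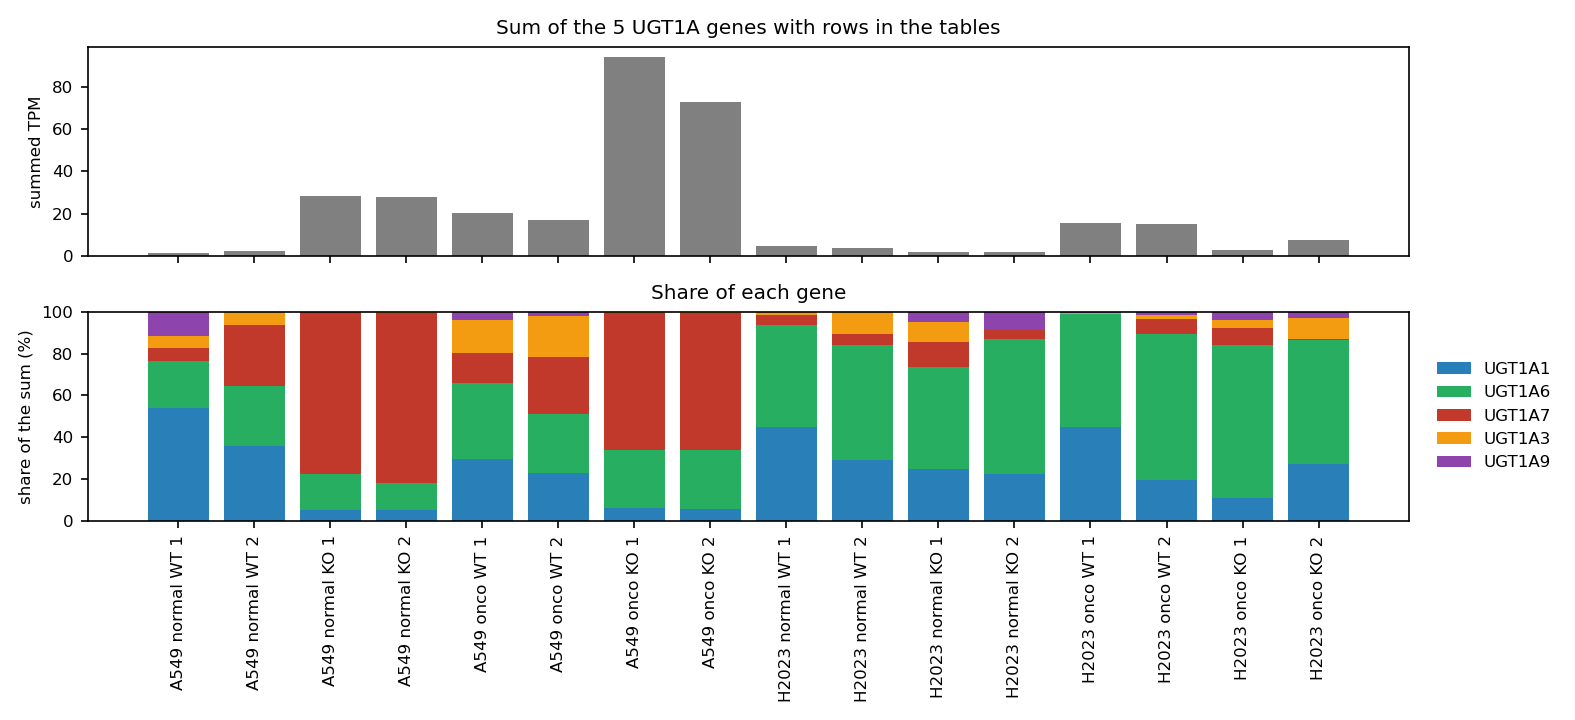
The upper bars give the summed TPM of the 5 UGT1A genes in each library and the lower bars the share of each gene in that sum (%), for wild type (WT) and labelled knockout (KO) in normal and oncosphere (onco) culture. UGT1A7 fills 65.3 to 81.4% of the bar in the 4 A549 libraries labelled knockout, and UGT1A6 is the largest part in every H2023 library.

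UGT1A3, a bile-acid-conjugating relative, was lower in A549 oncospheres labelled knockout, where UGT1A7 was higher. Both genes share their downstream exons, and how reads of these were divided is not given in the sources used here. UGT1A3 had 3.27 and 3.32 TPM in wild-type A549 oncospheres and 0.43 and 0.29 TPM in those labelled knockout, and it fell with a log2 fold change of -1.66 ± 0.17 (SE; limma adjusted p = 0.00601; 13.2% of all genes called). In A549 normal culture UGT1A3 overlapped between genotypes, at 0.14 TPM or less (log2 fold change -0.09, limma adjusted p = 0.539). With culture it rose in wild-type A549 cells, from 0.07 and 0.14 TPM in normal culture (log2 fold change 1.96 ± 0.13, limma adjusted p = 5.84e-05). UGT1A9 had at most 0.78 TPM in any library.

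Across the 8 group means, UGT1A1 and UGT1A6 correlated with a Pearson r of 0.872, UGT1A6 and UGT1A7 with 0.693, and UGT1A1 and UGT1A7 with 0.484, a description over points that share lines and cultures. Of 10448 other genes, those most like UGT1A7 over the 8 group means were SLC30A1, a zinc exporter (r = 0.986), NOX5, a superoxide-forming oxidase (r = 0.985), and PDE6G, a phosphodiesterase subunit (r = 0.974). SLC30A1 had group means of 46.4 and 69.3 TPM in the A549 groups labelled knockout and 17.6 to 31.8 TPM in the other 6. Most like UGT1A6 were CH17-340M24.3 (r = 0.977), ENSG00000250644 (r = 0.959) and IFITM10 (r = 0.958), and most like UGT1A1 were MFSD2A, a lysolipid transporter (r = 0.949), H2AC13, a histone (r = 0.936), and S100A8, a calcium-binding alarmin (r = 0.915).

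Genes that act around glucuronidation did not all go with UGT1A7 in A549 cells labelled knockout. In normal culture limma called 10.8% of all genes. Of the 15 transcription regulators of UGT1A measured, 0 were called higher and 3 lower (median log2 fold change -0.06, against -0.03 for all genes). HNF4A fell from 9.99 and 15.46 to 0.39 and 2.05 TPM (log2 fold change -2.71, limma adjusted p = 0.0252). The part of HNF4A, a known activator of UGT1A genes, in the UGT1A7 and UGT1A6 levels was not tested. Of the 18 NRF2 targets, 0 were called higher and 4 lower (median -0.20), among them the aldo-keto reductases AKR1B10 (-1.90), AKR1C2 (-1.36) and AKR1C3 (-1.12), and of the 5 AHR targets 0 were called higher and 1 lower, the aldehyde dehydrogenase ALDH3A1 (-1.08).

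Genes for supply and export of conjugates held calls in both directions there, where 10.8% of all genes were called. Of the 7 genes of UDP-glucuronate supply and use 1 was called, UXS1, which turns UDP-glucuronate into UDP-xylose (log2 fold change 0.63). Of the 6 efflux pumps ABCC1 was called higher (0.61) and ABCC4 lower (-0.85), 0 of the 8 genes of other UGT families were called, and of the 14 other conjugating enzymes 1 was, the methyltransferase NNMT (-1.07). Of the 5 neighbouring genes DGKD was called higher (1.06), and the other 4 were not called in either direction. In the same libraries 4 of 6 epithelial markers were called lower (summed 2571 and 5009 TPM labelled knockout, 9175 and 9346 TPM in wild type), and their part in the UGT1A levels was not tested. All calls of this comparison were lost when any 1 library was left out (0 genes called).

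In A549 oncospheres labelled knockout, where 13.2% of all genes were called, the lists held calls in both directions. Of the 15 regulators 2 were called higher and 5 lower (median 0.11, against 0.03 for all genes): HNF4A fell from 22.74 and 28.12 to 1.25 and 1.47 TPM (log2 fold change -3.48, limma adjusted p = 0.00248), and the pioneer factor FOXA1 fell with a log2 fold change of -1.39 (adjusted p = 0.0345). Of the 8 genes of other UGT families 0 were called higher and 3 lower (median -1.39): UGT2B11 (-2.19), UGT2B4 (-1.20) and UGT2A3 (-1.03). Of the 18 NRF2 targets 4 were called higher and 2 lower, with heme oxygenase HMOX1 at 1.37 and AKR1C2 at -1.05. Of the 5 AHR targets CYP1B1 was called higher (1.14), of the 6 pumps ABCC1 (1.12) and ABCC5 (0.76), and of the 14 other conjugating enzymes 1 was called higher, the sulfotransferase SULT1A1 (1.82), and 3 lower, with GSTA1 at -1.82. UXS1 rose (0.87), and UGDH, which makes UDP-glucuronate, fell (-0.59), as did the glucuronidase GUSB (-0.48). Among the 6 epithelial markers 0 were called higher and 2 lower, KRT19 (-3.68) and EPCAM (-2.33). The part of these markers and of the regulators in the UGT1A levels was not tested. Leaving out 1 library left 0 to 38 of all genes called. In H2023, where limma called no gene, the list genes that differed most between genotypes were the efflux pump ABCG2 in normal culture (-1.74, adjusted p = 0.111) and GSTA1 in oncospheres (-1.68, adjusted p = 0.208).

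In wild-type A549 oncospheres, where 40.6% of all genes were called and 19% were called higher, 7 of 8 genes of the other UGT families were called higher and 0 lower (median log2 fold change 1.33, against -0.01 for all genes). UGT2B11 rose from 0.25 and 0.24 to 6.38 and 7.06 TPM (2.63, limma adjusted p = 0.00117), and UGT2B10 (1.95) and UGT2B15 (1.81) rose as well. Of the 14 other conjugating enzymes 7 were called higher and 1 lower, led by SULT1C2 (2.14) and GSTA1 (2.00), and the pump ABCC3 rose (1.32) while 3 other pumps were called lower. Of the regulators 4 of 15 were called higher and 3 lower, a share of calls near that of all genes, with PPARA at 1.97 and FOXA1 at 1.71. NRF2 targets were called lower in 7 of 18 and higher in 2, with HMOX1 at -1.68 and AKR1C1 at 1.58. AHR targets were called lower in 3 of 5, with CYP1B1 at -0.96. With the knockout label, A549 oncospheres had 2 of 5 AHR targets called higher and 0 lower (ALDH3A1 1.11, CYP1B1 0.71). There 4 of 18 NRF2 targets were called higher and 1 lower. Of the 15 regulators 3 were called higher and 0 lower, with AHR at 1.62, where 10.9% of all genes were called higher and 20.8% in either direction. In A549 cells labelled knockout, where UGT1A genes rose too, 0 of the 8 other UGT genes were called with culture, although 6 were higher in both oncosphere libraries (median 0.29, against -0.01 for all genes), and the difference from wild type was not tested. In wild-type H2023 1 of 8 was called, UGT2B11 (0.58). The culture effect on UGT2B11 differed between the wild-type lines (interaction -2.05, limma adjusted p = 0.00864), as did that on UGT1A3 (-2.01, adjusted p = 0.00864).

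**Figure D5:**
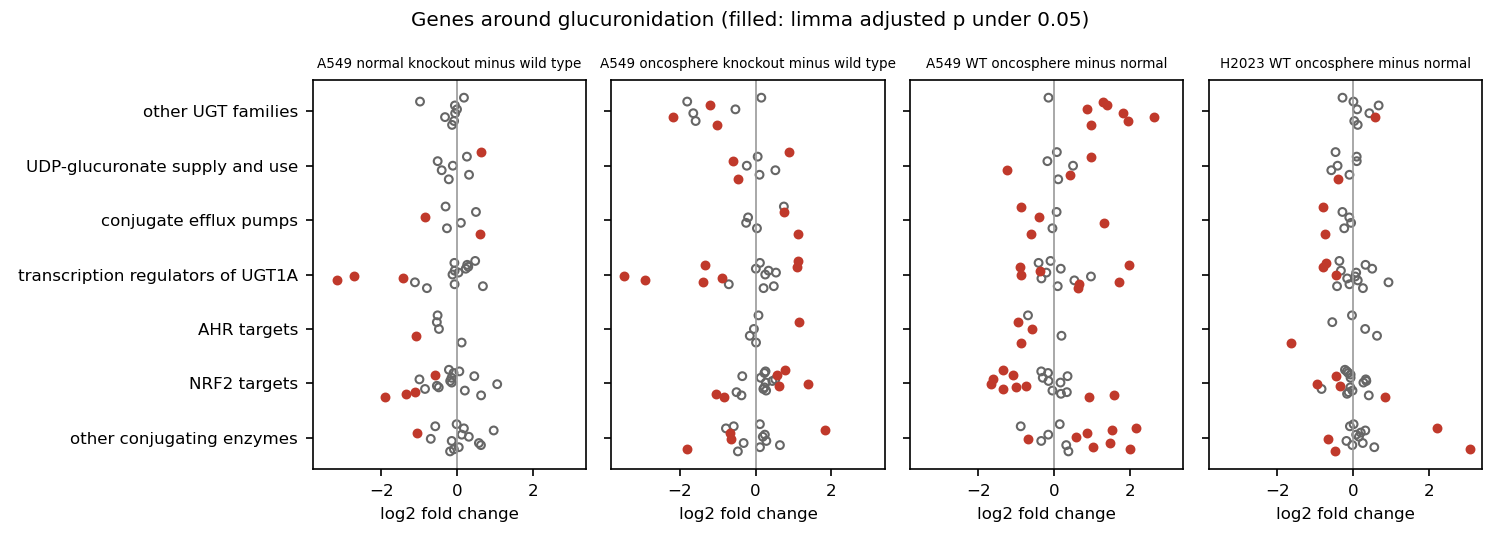
Each point is 1 gene of a list, placed by its log2 fold change on the log2(TPM + 1) scale in 4 comparisons, and filled red where limma's adjusted p was under 0.05. HNF4A lies far to the left among the regulators in both A549 genotype comparisons (-2.71 and -3.48), and 7 of 8 other UGT genes lie to the right in wild-type A549 oncospheres.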

How the data were processed

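Libraries were made from poly(A) RNA with a stranded kit, per the labels' protocols, and the submitters' processing notes name HISAT2, StringTie and GRCh38 without versions or roles. The authors deposited 4 tables, each with TPM per library for the 4 libraries of a line and culture. The TPM unit was taken from the values. Per the file headers, the tables also hold the authors' mean normalized counts (a signal, counts divided by size factors), log2 fold changes with standard errors, a test score whose sign is opposite to that of the fold change, and p-values and adjusted p-values. 0 columns went unmapped to a sample.

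TPM were analysed as log2(TPM + 1), with no filter on low values. limma 3.58.1, run in R 4.3.3 with its trend option, was fitted over all 18227 genes, and p-values were Benjamini-Hochberg adjusted over them, with a threshold of 0.05. Genotype comparisons used the 4 libraries of a table, culture comparisons the 8 of a line, and line comparisons the 8 wild-type libraries. The steps were tested on simulated data. Duplicate rows of a gene held the same values and were counted once, and a UGT1A3 identifier without a symbol was named from GENCODE 29. Depth cannot be read from TPM, so the deposited mean counts stand for it.

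The 3 genes and the gene lists were chosen with earlier results of these data known. From each list, up to 3 called genes with the largest fold change were named per comparison, or the largest where none was called (some genes of the lists are not reported here), and 3 genes most like each UGT1A gene among those with a group mean of 1 TPM or more and a range of at least 1 on the log2 scale. Alternatives were a pseudocount of 0.1 TPM, a filter at a mean of 1 TPM, median centring, a replicate block, all 16 libraries in 1 fit, the authors' deposited table, the sum of the UGT1A rows, and leaving out each library.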

Additional observations from a re-analysis of the deposited data

Results flagged for a closer look

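Some genotype differences pointed in opposite directions in the 2 lines, with every library of one line on one side and every library of the other on the opposite side. The difference between the lines was not tested for any of them. In normal culture UGT1A1 had log2 fold changes of 0.50 in A549 and -0.86 in H2023. UGT1A6 had 1.85 in A549 and -0.66 in H2023 in normal culture, and 1.81 and -1.31 in oncospheres. UGT1A7 had 4.13 in A549 and -0.10 in H2023 in normal culture, the latter between levels of 0.09 to 0.23 TPM.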

How the results depend on the processing

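Of the 33 differences of the 3 genes, the median-centred values all kept their direction, and those with a test kept their side of the threshold. The same held for the 29 that a filter at a mean of 1 TPM left with a value. The genotype differences among them had no test, so only their direction and size could be compared. The replicate block changed 1 call of a UGT1A gene, the UGT1A7 culture effect between lines (-1.60, adjusted p = 0.0481), which all 16 libraries in 1 fit also called (-1.60, adjusted p = 0.0345, with 2574 genes called in all), and moved no count of calls by over 1.5 times. Replicate numbers only name libraries here: deviations of same-numbered libraries correlated between -0.025 and 0.461.

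With a pseudocount of 0.1 TPM, genotype log2 fold changes in normal culture became 0.90 (UGT1A1), 3.03 (UGT1A6) and 5.96 (UGT1A7) in A549 and -1.66, -1.05 and -0.45 in H2023, and UGT1A7 in A549 cells labelled knockout lost its culture call (1.28). The authors' deposited table gave 1.30, 3.10 and 5.85 in A549 and -1.91, -1.24 and -0.69 in H2023 in normal culture, 0.028 for UGT1A1 in A549 oncospheres, of opposite sign, and -1.77 for UGT1A7 in H2023 oncospheres. It calls 3639, 3628, 1665 and 816 genes, against 1971 and 2413 in A549 and 0 and 0 in H2023 by limma. In H2023 the filter gave 481 and 6 calls and centring 322 and 1. The summed UGT1A rows kept the sign of the mean fold change of the 3 genes in all comparisons, though the size shifted in 6 of them and not in 5.

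Leaving out each library in turn left 0 of the calls in A549 normal culture and 0 to 38 in A549 oncospheres between genotypes. Counts of calls by culture ranged over 4924 to 6105 (A549 wild type), 2010 to 2436 (A549 labelled knockout), 1697 to 2630 (H2023 wild type) and 2090 to 3171 (H2023 labelled knockout), by line over 3946 to 4159 in normal culture, and for the interaction over 176 to 997. Genotype values ranged over -0.30 to 0.23 for UGT1A1 in A549 oncospheres and -0.85 to 0.20 for UGT1A7 in H2023 oncospheres. Culture values in A549 labelled knockout ranged over 1.03 to 1.48 (UGT1A1) and 1.07 to 1.43 (UGT1A7). Culture values in wild-type H2023 ranged over 1.56 to 1.84 (UGT1A6) and -0.29 to 0.77 (UGT1A7), and in H2023 labelled knockout over -0.11 to 1.12 (UGT1A1), 0.66 to 1.45 (UGT1A6) and -0.09 to 0.12 (UGT1A7). Line values ranged over 0.97 to 1.33 (UGT1A6) and -0.44 to 0.19 (UGT1A7) in normal culture and over -0.61 to 0.45 (UGT1A1) and -2.26 to -1.20 (UGT1A7) in oncospheres, and the UGT1A7 interaction over -2.13 to -1.07. Each such fit has fewer libraries, and a lone library of a group is assumed to vary like the others. The cause of the other shifts was not tested. Low mean counts limit UGT1A7 in H2023.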
